A study of Mus musculus with 6 samples.

Results

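The genes described here are 5 genes by which outer hair cells of the cochlea are recognized: Slc26a5, Ocm, Strc, Ikzf2 and Chrna10. They were taken by symbol, and the set was chosen by a proposal that had the counts of degenerated against control libraries in view, so that their levels and fold changes are given as a description without a test. Of the 5 genes, 4 had at least 1 transcript in the count table, among 33676 genes that had one, and the same 4 passed the filter on low counts, which left 14118 genes. Chrna10 (ENSMUSG00000066279, 2 annotated transcripts) had no listed transcript and was not analysed here.

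Outer hair cells are sensory cells of the organ of Corti that amplify sound by changing their length with the membrane potential. Their lateral membrane is packed with the motor protein prestin, their cytoplasm holds a high concentration of calcium-binding proteins, their tallest stereocilia are anchored in the tectorial membrane, and efferent fibres inhibit them through a nicotinic acetylcholine receptor. They are among the cochlear cells most sensitive to aminoglycoside antibiotics such as kanamycin, and the loop diuretic furosemide increases that damage.

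RNA was sequenced from the modiolus of the cochlea, its central bone with the spiral ganglion neurons (SGNs), of C57BL/6 mice in 3 control and 3 degenerated libraries. Control mice received saline, and degenerated mice received 1 g/kg kanamycin subcutaneously and, 30 min later, 0.4 g/kg furosemide intraperitoneally, with tissue taken on day 30. Only 8-week-old male mice entered the model, the labels give no genetic change for either group, and no source used here gives the number of mice behind a library. Nothing says that the libraries came from separate animals, so p-values measure the spread between these libraries, which may be technical.

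The libraries held 12480876 to 15549319 counts over the listed transcripts, which are 46% of the annotated ones, so that values of a gene with only a part of its transcripts listed describe that part. CPM are counts scaled to the library's total after TMM normalization, and an upregulated or downregulated gene was higher or lower in degenerated libraries. Genes were called where the unadjusted p of edgeR's quasi-likelihood test was below 0.01 and the log2 fold change was beyond 0.2 in either direction. This held for 385 of the 14118 genes (2.73%), 284 upregulated (2.01%) and 101 downregulated (0.715%). It held for 466 of 26065 transcripts tested in the same way (1.79%). After Benjamini-Hochberg adjustment that test left 0 genes (0%) below 0.05, while 1367 (9.68%) had an unadjusted p below 0.05 and DESeq2 left 382 (2.71%) after adjustment. The labels give SGN as the cell type, and none of the 13 SGN markers had 0 counts in every library, though Prph had 0, 4 and 43 in control. Their summed CPM was 11200 to 14500 in control and 6750 to 10000 in degenerated libraries, with 9 of the 13 lower and 4 higher. Tubb3 hardly differed (log2 fold change -0.04, SE 0.13). Outer hair cells are not part of the ganglion, yet Ocm, Slc26a5, Strc and Ikzf2 were counted in every control and every degenerated library. Chrna9 and Bcl11b, also genes of outer hair cells, had 0 counts in all libraries.

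Ocm and Slc26a5 were at a few percent of their control means in degenerated libraries, Strc was lower with a wide spread, and Ikzf2 was higher. Calls of the fit over all genes are not given for these 4 genes, because they were chosen on the same contrast. The groups did not overlap in 3 genes that were lower and 1 that was higher, beside 7.37% and 10.3% of all tested genes. The genes were chosen with these values known, so nothing is read from the counts.

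**Figure D1:**
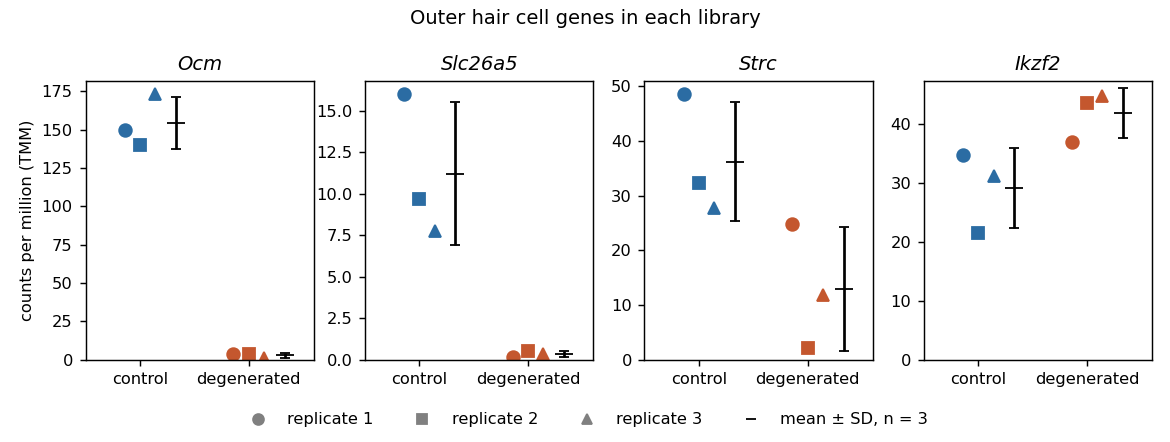
Level of each gene in each library, in CPM after TMM normalization, on an axis that starts at 0 and has its own range in each panel; blue symbols are control and orange symbols degenerated libraries, the symbol shape gives the replicate number, and the bar is the mean ± SD of the 3 libraries. Ocm lies at 140 to 173 in control and at 0.789 to 3.9 in degenerated libraries, Slc26a5 at 7.78 to 16 and at 0.137 to 0.493, the highest degenerated value of Strc (24.8) lies close to its lowest control value (27.8), and every degenerated value of Ikzf2 lies above its control values.

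Slc26a5 encodes prestin, the voltage-driven motor of the outer hair cell membrane. The gene (ENSMUSG00000029015) lies at chr5:21810655-21865604 on the minus strand of GRCm38, and all 5 annotated transcripts were listed. The counts were 242, 137 and 122 in control replicates 1, 2 and 3 and 2, 7 and 4 in degenerated replicates 1, 2 and 3. All degenerated libraries were lower than all control libraries, and control replicate 1 stood above the other control libraries. In CPM the controls were 16, 9.69 and 7.78 and the degenerated libraries 0.137, 0.493 and 0.316. The mean went from 11.2 ± 4.31 to 0.315 ± 0.178 CPM (SD, n = 3 each), to 2.82% of the control mean, and the fitted log2 fold change was -5.11 (SE 0.60). The lowest control was still 15.8 times the highest degenerated library. Slc26a5 passed the filter on low counts through its control libraries alone, and the degenerated values rest on 13 counts in all. The exact 95% Poisson intervals of the 3 degenerated counts, which cover counting error only, ran from 0.242 to 7.22 for 2 counts, from 2.81 to 14.4 for 7 counts and from 1.09 to 10.2 for 4 counts, and overlap each other, so that an order among the degenerated libraries was not detectable at this depth.

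The reads of Slc26a5 went to the full-length transcript. Slc26a5-201, with 20 exons and a protein-coding frame, took 98.0% of the control counts and 100% of the degenerated counts, with 241, 136 and 114 against 2, 7 and 4 counts (log2 fold change -5.13, SE 0.65). Slc26a5-205, a retained-intron transcript, had 1, 1 and 8 counts in control and 0 in each degenerated library, where a count of 0 allows up to 3. Slc26a5-202, Slc26a5-203 and Slc26a5-204 had 0 counts in all 6 libraries. Exons 5 and 13 of Slc26a5-201 are shown because they part it from these uncounted transcripts: exon 5 (chr5:21840566-21840676, 111 bases) is absent from Slc26a5-202, and exon 13 (chr5:21820313-21820408, 96 bases) from Slc26a5-203 and Slc26a5-204. The sequences are those of the spliced transcript in GENCODE M21 (GRCm38, minus strand), with the exon in capitals and 20 bases of the exon before it and of the exon after it in lower case.
Slc26a5-201 exon 5: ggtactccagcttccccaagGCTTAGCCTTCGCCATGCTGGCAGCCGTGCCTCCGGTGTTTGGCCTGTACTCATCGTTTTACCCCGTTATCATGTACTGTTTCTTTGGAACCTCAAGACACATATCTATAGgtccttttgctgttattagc
Slc26a5-201 exon 13: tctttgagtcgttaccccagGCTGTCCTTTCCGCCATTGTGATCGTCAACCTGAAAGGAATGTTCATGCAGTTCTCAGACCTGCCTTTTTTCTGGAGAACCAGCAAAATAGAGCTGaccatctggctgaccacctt

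Ocm encodes oncomodulin, a parvalbumin with EF-hand calcium-binding sites that is the main calcium buffer of mature outer hair cells. The gene (ENSMUSG00000029618) lies at chr5:144019804-144026670 on the minus strand, and 2 of its 3 transcripts were listed. Ocm had 2273, 1973 and 2710 counts in control and 57, 48 and 10 in degenerated replicates 1, 2 and 3. Control libraries were close to each other, with a coefficient of variation of 11.0%, and degenerated libraries were all far below them, with a coefficient of variation of 61.9% and the lowest value in replicate 3. Relative to the control mean, degenerated replicates 1, 2 and 3 were at 2.53%, 2.19% and 0.511%. The lowest control library was 35.8 times the highest degenerated library. The fitted log2 fold change of Ocm was -5.83 (SE 0.61), and 4 of the 14118 tested genes had a more negative one. Ocm was chosen with this contrast in view, so nothing is read from that rank.

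Both listed Ocm transcripts were lower in all degenerated libraries than in any control library. Ocm-201, the transcript with the whole frame, had 1634, 1545 and 2071 counts in control and 36, 38 and 10 in degenerated libraries (log2 fold change -5.92, SE 0.54). Ocm-203, a shorter transcript of 3 exons, had 639, 428 and 639 against 21, 10 and 0 (log2 fold change -5.74, SE 1.28). The share of Ocm-203 in the counts of the gene was 24.5% in control and 27.0% in degenerated libraries, and it ranged from 21.7% to 28.1% among controls. The degenerated share rests on few counts, and in replicate 3 it was 0% of 10 counts. The coding sequence of Ocm-201 has 330 bases (chr5:144020076-144025706, minus strand, GENCODE M21), and its first 242 are shown because the transcripts share its start. The first 182 bases, in capitals, are also in Ocm-203, so that reads within them cannot be told apart by sequence, and the shared run ends before the 60 bases in lower case.
Ocm-201 start of the coding sequence: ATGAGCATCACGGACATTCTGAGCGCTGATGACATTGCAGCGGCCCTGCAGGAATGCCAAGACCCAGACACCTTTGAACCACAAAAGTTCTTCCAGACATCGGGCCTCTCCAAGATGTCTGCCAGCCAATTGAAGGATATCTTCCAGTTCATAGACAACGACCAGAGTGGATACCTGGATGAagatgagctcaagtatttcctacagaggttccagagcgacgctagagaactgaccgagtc

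Strc encodes stereocilin, an extracellular protein that links outer hair cell stereocilia to each other and to the tectorial membrane. The gene (ENSMUSG00000033498) lies at chr2:121363728-121387168 on the minus strand, with 2 of its 5 transcripts listed and all counts in Strc-201, a protein-coding transcript of 29 exons. Its counts were 734, 457 and 436 in control and 362, 29 and 149 in degenerated replicates 1, 2 and 3. In CPM, controls were 48.6, 32.3 and 27.8 and degenerated libraries 24.8, 2.04 and 11.8. Degenerated replicate 1 came near the lowest control, which was 1.12 times as high, and degenerated replicate 2 was lowest of all, with replicate 1 at 12.1 times its level. The means were 36.2 ± 10.9 and 12.9 ± 11.4 CPM (SD, n = 3 each), a level of 35.5% of control, and the fitted log2 fold change was -1.49 (SE 0.82). Single libraries moved it, to -2.40 without degenerated replicate 1 and to -1.0 without degenerated replicate 2. No test is given for Strc. Ckmt1, which encodes a mitochondrial creatine kinase, shares 10 bases with Strc on the other strand, and no source used here says that strand was counted.

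Ikzf2 encodes helios, a zinc-finger transcription factor of the Ikaros family that is needed for outer hair cell identity and is also known from regulatory T cells. The gene (ENSMUSG00000025997) lies at chr1:69531214-69687245 on the minus strand, and 3 of its 9 transcripts were listed. Counts were 526, 305 and 489 in control and 541, 620 and 569 in degenerated replicates 1, 2 and 3. The CPM of controls were 34.8, 21.6 and 31.2 and those of degenerated libraries 37.0, 43.7 and 44.9. All degenerated libraries were above all controls, by a narrow margin between control replicate 1 and degenerated replicate 1. The means were 29.2 ± 6.84 and 41.9 ± 4.25 CPM (SD, n = 3 each), a level of 143% of control, with a fitted log2 fold change of 0.52 (SE 0.23) that ranged from 0.34 without control replicate 2 to 0.66 without control replicate 1. No test is given for Ikzf2.

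Ikzf2-201 carried 99.8% of the counts of the gene in both groups (log2 fold change 0.48, SE 0.25), Ikzf2-203 had 1 count in each of the 6 libraries and Ikzf2-206 had none. An antisense gene, Gm29114, shares 16494 bases of the locus, introns included, and had no listed transcript. The overlap of their exons was not computed, and reads from shared bases cannot be told apart without strand. A list of 12 lymphocyte markers had a summed CPM of 31.6 to 348 in control and 58.2 to 205 in degenerated libraries, with overlapping groups. Of the markers of regulatory T cells among them, Foxp3 and Ctla4, with a part of their transcripts listed, had 0 counts in all libraries, and Il2ra had 161, 202 and 152 counts in control and 143, 141 and 201 in degenerated libraries. The part of these cells in the value of Ikzf2 was not tested. In bulk tissue, a change in the number of cells of a type and a change in RNA per cell cannot be told apart.

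Levels of different genes were compared per length, in TPM over the listed transcripts. In control libraries the order was Ocm at 545 ± 80.9, Strc at 11.6 ± 4.27, Slc26a5 at 7.85 ± 2.67 and Ikzf2 at 5.85 ± 1.69 TPM (SD, n = 3 each). Ocm was 46.9 times as high as Strc and did not overlap with it, whereas Strc and Slc26a5, and Slc26a5 and Ikzf2, overlapped between libraries. In degenerated libraries the order was Ocm at 10.4 ± 7.09, Ikzf2 at 8.96 ± 1.16, Strc at 4.3 ± 3.73 and Slc26a5 at 0.213 ± 0.127 TPM. Ocm, Ikzf2 and Strc overlapped with their neighbours there, and Strc was 20.2 times as high as Slc26a5 without overlap. Slc26a5 was thus the lowest of the 4 genes after kanamycin and furosemide, with 0.0877, 0.341 and 0.209 TPM in replicates 1, 2 and 3.

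**Figure D2:**
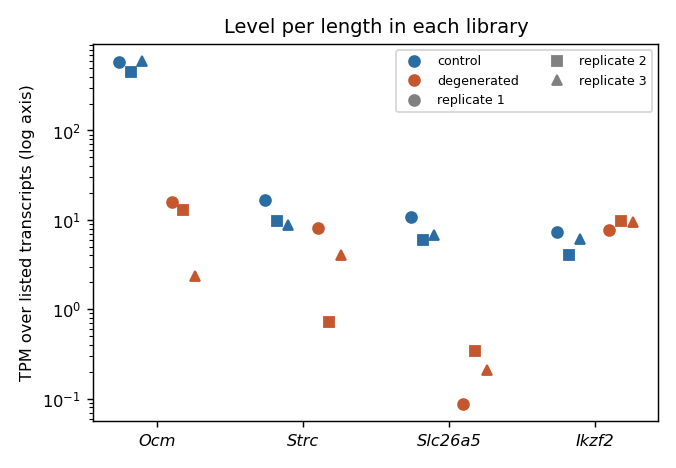
Level per transcript length of the 4 genes in each library, in TPM over the listed transcripts on a log axis; blue symbols are control, orange symbols degenerated libraries, and the symbol shape gives the replicate number. Ocm stands apart from the others in control (452 to 597), its degenerated libraries (2.35 to 15.8) lie in the range of the other genes, and Slc26a5 is at 0.0877 to 0.341 in degenerated libraries.

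The tested genes whose profile over the 6 libraries was nearest to each of the 4 genes were found by the root mean square difference of log2(CPM + 0.5) after centring each gene on its mean. Ocm was nearest to Tmod2 (0.62), which encodes tropomodulin 2, then to Slc26a5 (1.22) and Kxd1 (1.31). The difference in Tmod2 lay in 1 of its 4 listed transcripts, Tmod2-201, with 4389, 2649 and 3562 counts in control and 0, 1 and 0 in degenerated libraries. Slc26a5 was nearest to Kxd1 (0.25), Ccdc122 (0.71) and Slc45a3 (0.79). In degenerated replicates 1, 2 and 3, Ccdc122 had 0, 0 and 0 counts and Slc45a3 0, 10 and 0, so that their distances depend on the added 0.5. Strc was nearest to Ppat (0.31), Art1 (0.31) and Cyp2g1 (0.34), each of which had its lowest degenerated value in replicate 2 and its highest in replicate 1. Ikzf2 was nearest to Tspan12 (0.04), Gm42421 (0.05) and Smad5 (0.05), of which Gm42421 had only 3 to 13 counts in each library. Ikzf2 lay far from Ocm (3.22) and from Slc26a5 (2.19), and Strc was nearer to Slc26a5 (1.48) than to Ocm (2.27). These distances are a description over libraries that also chose the genes.

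The 250 bases before the start of Slc26a5 and of Strc are shown because both genes were lower in degenerated libraries and their RefSeq start (GRCm38.p6) is the start of the transcript with most counts. The RefSeq start of Ocm lies 24010 bases from that of Ocm-201, and no promoter is shown for it. Matches on either strand to the TATA box TATAAA, the E-box CANNTG and the Ikaros core TGGGAA, which do not overlap here, are in capitals. Slc26a5 (chr5:21865605-21865854, minus strand) held 1 Ikaros core, written TTCCCA, 149 bases before the start, and 0 matches to the other motifs. Strc (chr2:121380941-121381190, minus strand) held 2 E-boxes, both CAGGTG, 103 and 80 bases before the start, and 0 matches to the other motifs. Of all 32851 promoters of the same length, 12.4% held TATAAA, 66.2% CANNTG and 21.6% TGGGAA. A match describes these letters and says nothing of binding.
Slc26a5 promoter: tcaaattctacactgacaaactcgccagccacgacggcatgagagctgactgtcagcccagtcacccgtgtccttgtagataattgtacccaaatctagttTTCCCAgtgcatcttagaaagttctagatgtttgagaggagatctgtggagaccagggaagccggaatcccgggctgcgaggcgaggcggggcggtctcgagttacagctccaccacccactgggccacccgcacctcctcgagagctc
Strc promoter: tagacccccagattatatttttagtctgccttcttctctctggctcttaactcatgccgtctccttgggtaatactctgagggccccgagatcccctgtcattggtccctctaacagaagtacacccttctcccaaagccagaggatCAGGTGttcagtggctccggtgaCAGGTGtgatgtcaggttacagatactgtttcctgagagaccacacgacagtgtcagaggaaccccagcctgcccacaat

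Further genes are enriched in outer hair cells or needed by them. Of 15 such genes, 14 were listed and 10 were tested, of which 4 were higher and 6 lower. Their median log2 fold change was -0.15 against -0.00344 over all tested genes. Of the 10, 1 was called downregulated, beside 0.715% of all tested genes. The called gene was Lmod3, which encodes leiomodin 3, an actin nucleator also known from skeletal muscle. It had 31, 41 and 33 counts in control and 10, 10 and 9 in degenerated libraries (log2 fold change -1.74, SE 0.35, unadjusted p = 0.00237, adjusted p = 0.277 in edgeR's test). The call was lost when control replicate 2 (unadjusted p = 0.012), degenerated replicate 1 (unadjusted p = 0.0109) or degenerated replicate 2 (unadjusted p = 0.0111) was left out. Skeletal muscle markers other than Pvalb had a summed CPM of 8.01, 10.1 and 497 in control and 10.4, 3.38 and 7.42 in degenerated libraries. The CPM of Lmod3 were 2.05, 2.9 and 2.11 in control. The part of muscle in the value of Lmod3 was not tested. Chrna9, which encodes the subunit that joins the Chrna10 product in the efferent receptor, had 0 counts in all libraries, as had the transcription factor gene Bcl11b.

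Atp2b2, which encodes the calcium pump of the stereocilia, had 3815, 158 and 3135 counts in control and 111, 107 and 201 in degenerated libraries. Control replicate 2 was thus at the level of the degenerated libraries, and nearly all of the difference lay in Atp2b2-201, with 3670, 4 and 3118 against 6, 6 and 10 counts. Its log2 fold change of -3.90 (SE 1.11) was not called (unadjusted p = 0.0124, adjusted p = 0.388 in edgeR's test), and without control replicate 2 it was called at -4.46 (unadjusted p = 0.000126). Kcnn2 encodes the calcium-activated channel that follows the efferent receptor, with 46.1 ± 4.01 and 42.5 ± 1.55 CPM (log2 fold change -0.12, SE 0.14). Kcnma1, the gene of the BK channel, had 3.45 ± 0.978 and 6.97 ± 1.47 CPM (log2 fold change 1.01, SE 0.35, unadjusted p = 0.0259, adjusted p = 0.441 in edgeR's test), and Dnm3, a dynamin gene, 3.63 ± 1.36 and 6.65 ± 1.99 CPM (log2 fold change 0.87, SE 0.41). Neither Kcnma1 nor Dnm3 was called. The log2 fold changes of Rapsn, Sri, Lmo7 and Sptbn5 were -0.19, -0.25, 0.03 and 0.31, none of them larger than its SE, and none was called.

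**Figure D3:**
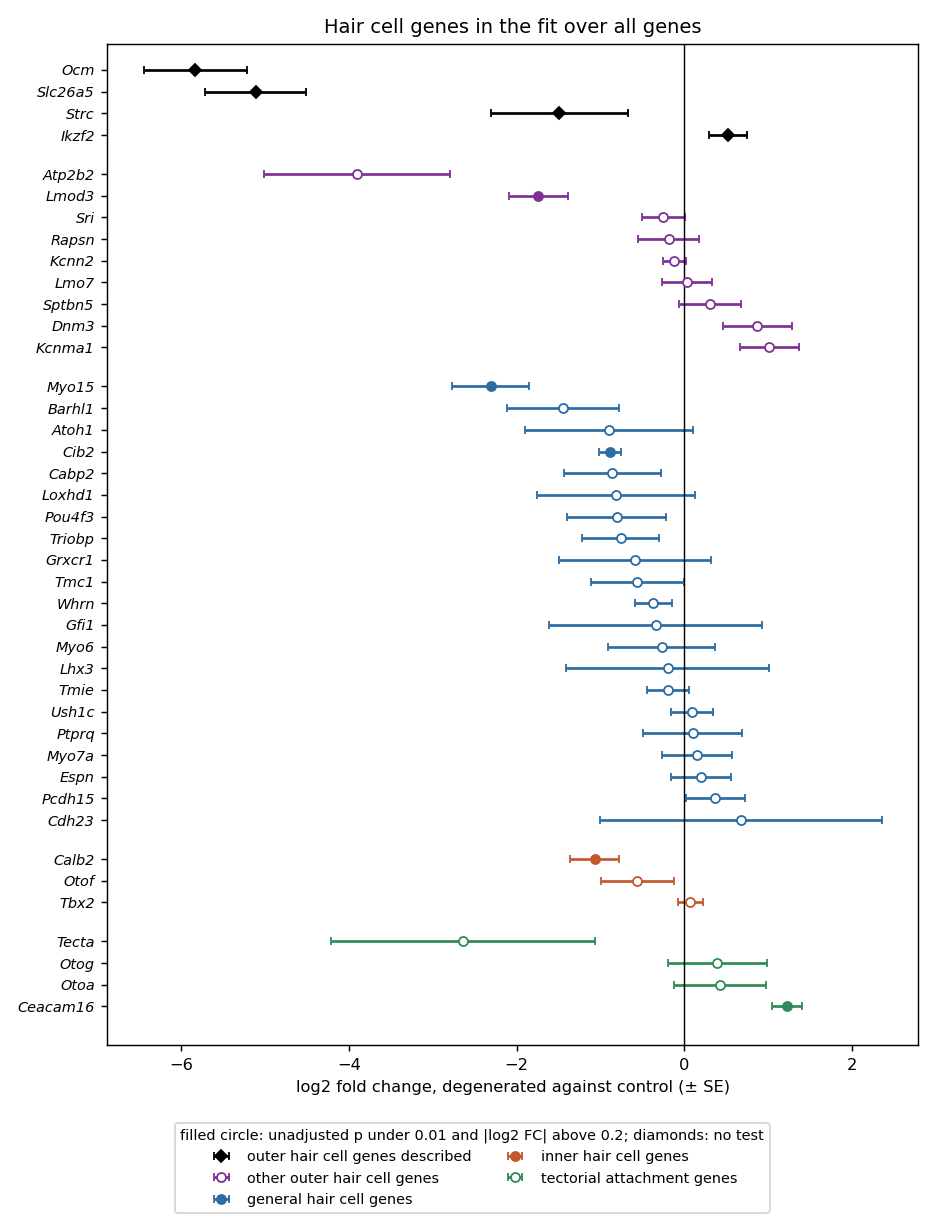
Log2 fold change of degenerated against control libraries with its SE, from edgeR's fit over all 14118 tested genes; black diamonds are the 4 genes described, which carry no test, and coloured circles are other outer hair cell genes, genes of both hair cell types, inner hair cell genes and tectorial attachment genes, filled where called. Ocm (-5.83) and Slc26a5 (-5.11) lie farther from 0 than any other gene drawn, Atp2b2 (-3.90) follows with an SE of 1.11, and Ikzf2 lies above 0.

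Genes used by both hair cell types had a median log2 fold change of -0.37. Of 23 such genes 21 were tested, 6 were higher and 15 lower, and 2 were called, both downregulated, beside 0.715% of all tested genes. Myo15 encodes the myosin that carries proteins to stereocilia tips, and its CPM was 81.4 ± 20.2 in control and 16.4 ± 9.62 in degenerated libraries (log2 fold change -2.31, SE 0.46, unadjusted p = 0.00239, adjusted p = 0.277 in edgeR's test). Its call was lost without degenerated replicate 2 (unadjusted p = 0.0119 in edgeR's test). Cib2, which encodes a calcium-binding partner of the transduction channel, had 173 ± 19.8 and 93.6 ± 6.62 CPM (log2 fold change -0.89, SE 0.13, unadjusted p = 0.000432, adjusted p = 0.178 in edgeR's test) and was called in all 6 fits that left out 1 library.

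The pattern of Strc among degenerated libraries, highest in replicate 1 and lowest in replicate 2, was also that of many of these genes. It was found in 13 of the 21 tested genes of both hair cell types (61.9%), in 1 of 3 tested inner hair cell genes, in 0 of the 10 other outer hair cell genes and in 2182 of all 14118 tested genes (15.5%). The next 3 genes are examples of the 13. Relative to the control mean, Pou4f3, a hair cell transcription factor gene, was at 107%, 21.1% and 43.5% in degenerated replicates 1, 2 and 3. Cabp2, which encodes a calcium-binding protein of the hair cell synapse, was at 95.6%, 19.6% and 49.9%, and Loxhd1, a stereocilia gene, at 126%, 10.2% and 33.4%. Other genes of both hair cell types had another order: Myo6 was at 23.1%, 150% and 75.1%, Myo15 at 11.3%, 15.6% and 33.5%, and Pcdh15 at 95.7%, 159% and 133%. Strc itself was at 68.3%, 5.64% and 32.4%. Ocm was at 2.53%, 2.19% and 0.511%, with its lowest value in replicate 3, and Slc26a5 was at 1.23%, 4.42% and 2.83%, where the few counts allow no order. The median of the 24 tested hair cell genes was 106% of the control mean in degenerated replicate 1, with a range from 11.3% to 408%. It was 45.2% and 65.6% in degenerated replicates 2 and 3, and 120%, 82.0% and 91.6% in control replicates 1, 2 and 3. The 24 genes include Calb2, which SGN also express. The part of hair cell number in these values and in those of Slc26a5 and Ocm was not tested.

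**Figure D4:**
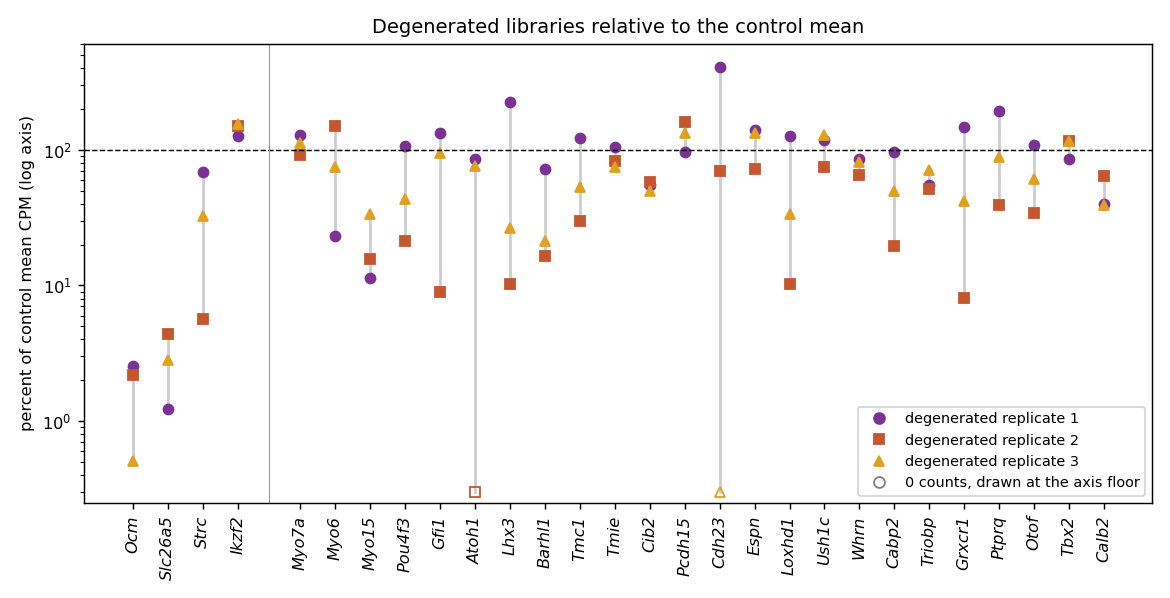
CPM of each degenerated library as a percent of the control mean, on a log axis with 100% dashed, for the 4 genes described, left of the vertical line, and the 24 tested genes of both hair cell types and of inner hair cells, right of it; symbols and colours give the degenerated replicate and open symbols a count of 0 drawn at the axis floor. Slc26a5 and Ocm lie between 0.511% and 4.42% in all 3 libraries, and Strc spreads from 5.64% to 68.3%. Many genes on the right, such as Loxhd1 and Grxcr1, have replicate 1 highest and replicate 2 lowest, and others, such as Myo6 and Pcdh15, do not.

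Of 5 inner hair cell genes, 3 were tested and 1 was called downregulated, beside 0.715% of all tested genes. Otof, which encodes otoferlin, the calcium sensor of transmitter release, had 236 ± 66.8 CPM in control and 160 ± 89.5 in degenerated libraries (log2 fold change -0.56, SE 0.44) and was not called. Calb2, which encodes calretinin and is also a gene of SGN, had 2740 ± 787 and 1300 ± 382 CPM (log2 fold change -1.07, SE 0.29, unadjusted p = 0.00964, adjusted p = 0.362 in edgeR's test). Its call was lost in 5 of the 6 fits without 1 library, with control replicate 1 (unadjusted p = 0.0126), 2 (unadjusted p = 0.0127) or 3 (unadjusted p = 0.0225) or degenerated replicate 1 (unadjusted p = 0.0318) or 3 (unadjusted p = 0.035) left out. Slc17a8 had 0 counts in all controls and in degenerated replicates 2 and 3, and 2 in replicate 1.

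Stereocilin works beside other proteins of the tectorial membrane, of which 4 of 7 were listed and tested. Ceacam16, which encodes a structural protein of the tectorial membrane secreted by supporting cells, was upregulated while Strc was lower, with 18053, 18534 and 14082 counts in control and 34308, 40286 and 34774 in degenerated libraries (log2 fold change 1.22, SE 0.18, unadjusted p = 0.000396, adjusted p = 0.175 in edgeR's test). All degenerated libraries were above all controls. Markers of supporting cells had a summed CPM of 2970 to 3340 in control and 3760 to 4450 in degenerated libraries, most of it from S100a1 and Gjb2. Of 7 tested markers 5 were higher and 2 lower, Prox1 (log2 fold change -0.43, SE 0.27) and Fgfr3 (-0.35, SE 0.94). The part of supporting cells in the value of Ceacam16 was not tested. Tecta, Otog and Otoa were not called.

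Among relatives of the 4 genes, the calcium buffers of the parvalbumin and calbindin kind had 2 tested members, Pvalb and Calb2. Both were called downregulated, beside 0.715% of all tested genes. Pvalb, the parvalbumin gene of SGN and hair cells, had 784 ± 53.6 CPM in control and 448 ± 108 in degenerated libraries (log2 fold change -0.81, SE 0.20, unadjusted p = 0.00633, adjusted p = 0.342 in edgeR's test), a smaller change than that of Ocm. Its call was lost without control replicate 1 (unadjusted p = 0.018), 2 (unadjusted p = 0.0133) or 3 (unadjusted p = 0.0175). The summed CPM of SGN markers other than Calb2 was 8920 to 12200 in control and 5670 to 8270 in degenerated libraries, and their part in the values of Pvalb and Calb2 was not tested. Of 10 other SLC26 anion transporter genes, 5 were tested, 2 were higher, 3 were lower and 0 were called. In 1 of the lower genes the groups did not overlap, beside 7.37% of all tested genes. Slc26a4, the pendrin gene, had 201 ± 33.9 and 275 ± 102 CPM. Of the 4 other Ikaros genes, 3 were tested, all lower (median log2 fold change -0.20), and 0 were called. Of 15 nicotinic receptor subunit genes other than Chrna10, 3 were tested, all lower (median log2 fold change -0.31), and 0 were called.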

How the data were processed

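The 3 control and 3 degenerated libraries of modiolus RNA were grouped by the labels. The authors aligned reads with Hisat2 and evaluated expression with StringTie, as the study's methods describe, whereas the submitters' processing notes name Bowtie 0.12.2 and the builds mm8 and mm10; no source used here gives the annotation or the counting step. The deposited table holds raw counts, in whole numbers without normalization, for 65535 Ensembl transcripts. The comparison had been designed for counts per gene, so counts were summed over the listed transcripts of each gene in GENCODE M21 (GRCm38), which matched 65272 of them; the other 263 (0.125% of the counts) were not used.

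The genes, the lists and the tests were chosen with earlier results of these data known. The test across genes was that of edgeR 4.0.16 under R 4.3.3 (filterByExpr, TMM, robust quasi-likelihood F test, Benjamini-Hochberg adjustment over all genes tested), with 3 control against 3 degenerated libraries and no covariate, and transcripts in the same way. SEs were computed as the absolute log2 fold change divided by the square root of F. TPM were counts per transcript length, scaled to the sum over the listed transcripts. The text names the 5 genes and their listed transcripts, called members of the other hair cell, attachment and family lists, every tested gene of the list of other outer hair cell genes except 1 that is not reported here, and the 3 tested genes nearest in profile to each; other genes were named with their values in view. For a count of 0, up to 3 counts were allowed, and intervals cover counting error only. Alternatives were DESeq2 1.42.0, RLE normalization, no filter on low counts, a mean count of at least 10, protein-coding transcripts only, a block for the replicate number, and fits that lacked 1 library. The steps were tested on simulated data.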

Additional observations from a re-analysis of the deposited data

How the results depend on the processing

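Under DESeq2, RLE normalization, no filter, a mean count of at least 10, protein-coding transcripts only, the replicate block and each library left out, the fitted log2 fold changes of the 4 outer hair cell genes kept their direction: from -5.59 to -4.77 for Slc26a5, from -6.21 to -5.40 for Ocm, from -2.40 to -1.0 for Strc and from 0.34 to 0.66 for Ikzf2 when 1 library was left out. The order of the control levels was the same when only the longest listed transcript was used. Over all genes, the 385 calls became 785 with DESeq2 (479 upregulated and 306 downregulated) and 258 to 497 without 1 library, and the 0 genes that edgeR's test left below an adjusted p of 0.05 became 382 with DESeq2 and 0 to 3 without 1 library (2 without degenerated replicate 2, 3 without degenerated replicate 3). The 466 called of 26065 tested transcripts became 411 to 642 without 1 library. The lists of other outer hair cell, both hair cell types, inner hair cell and attachment genes held 5 calls. Fits without 1 library made 3 to 5 calls in these lists, 3 without degenerated replicate 2. The called genes were not always the same: without control replicate 2, Lmod3 and Calb2 were not called and Atp2b2 was. The cause of these differences was not tested. Without 1 library, the log2 fold change of Rapsn ranged from -0.42 to 0.05, that of Lmo7 from -0.15 to 0.24 and that of Sptbn5 from -0.02 to 0.6. Atp2b2 was called with DESeq2 (-3.91), and Calb2 was not called with a mean count of at least 10.

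Deviations from the group means of same-numbered libraries had correlations of 0.137, -0.0833 and 0.0641, and those of differently numbered ones ran from -0.252 to 0.214. With 3 libraries in each group, these values cannot exclude that the replicate numbers pair the samples. With the replicate block, the calls over all genes were 218, those over transcripts 221 and those in the 4 lists 2, Lmod3, Myo15, Calb2 and Pvalb were not called, Lmo7 was at -0.01, and Slc26a5, Ocm, Strc and Ikzf2 were at -5.11, -6.00, -1.97 and 0.54. Depth limits Slc26a5 most, whose degenerated libraries held 2 to 7 counts.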

Other observations

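Of the 15 other outer hair cell genes, Aqp11, which encodes an aquaporin, was too low to be tested and is named here after its values were seen: it had 1, 3 and 1 counts in control and 8, 12 and 14 in degenerated replicates 1, 2 and 3. Among markers of other cells of the sample, those of bone had a summed CPM of 564 to 796 in control and 179 to 352 in degenerated libraries, with all 4 tested genes lower. Of these, Bglap was called downregulated, beside 0.715% of all tested genes. Without control replicate 2, without control replicate 3 or without degenerated replicate 2, 0 bone genes were called. Macrophage markers had 346 to 423 and 481 to 630, most of it from the complement genes C1qb and C1qc. These were the 2 called upregulated among 5 tested genes, beside 2.01% of all tested genes. Of the 5 genes, 3 were higher and 2 lower, Cd68 (log2 fold change -1.54, SE 1.11) and Cd163 (-0.26, SE 0.31). Aif1, which did not pass the filter, had 228, 1 and 254 counts in control and 2, 0 and 0 in degenerated libraries. Without control replicate 1, 1 macrophage gene was called upregulated, and without control replicate 2 or 3 or degenerated replicate 1 or 3, 0 were. Blood and marrow markers ranged from 6480 to 52200 in control and from 4900 to 20200 in degenerated libraries, with all 8 tested genes lower and 0 called, and Schwann cell markers from 5450 to 9660 and from 4830 to 7640, with 0 of 6 called. Of 13 SGN genes, 9 were lower and 1, Calb2, was called downregulated, beside 0.715% of all tested genes. Of 7 supporting cell genes, 5 were higher and 0 were called, and of 9 lymphocyte genes 0 were called. Of 4 tested skeletal muscle genes, the 1 called was Pvalb, which SGN also express. The other 3, Tnni2, Mylpf and Atp2a1, were highest in control replicate 3, Atp2a1 with a CPM of 3.77, 3.04 and 120 in control and 5.4, 2.25 and 2.45 in degenerated libraries. The part of these cells in the values of the outer hair cell genes was not tested.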
